A study of Mus musculus with 6 samples.

Results

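The ribosomal protein genes, which encode the protein part of the cytosolic ribosome, were followed through 3 mouse embryonic stem cell lines together with the copies that arose from them. Members were chosen by symbol: a single gene symbol in the array annotation that starts with Rpl or Rps and a digit, or Rpsa, Rplp0, Rplp1 or Rplp2, without S6 kinases, Rps27l and pseudogene symbols. This rule gave 62 of the 19938 genes that had a probe set with a single symbol, 38 named Rpl and 24 named Rps, represented by 218 such probe sets, of which 206 are distinct because some probe sets of a gene hold the same values in all arrays. The rule itself used symbols and no measured value, but it was set with earlier results of these data known. A member with several such probe sets was represented by the brightest, which was picked from the measured intensities. Of the 62, 54 belong to the canonical list of 79 cytosolic ribosomal protein genes. The other 8 are Rpl10l, Rpl32l, Rpl39l, Rpl3l, Rpl7l1, Rps4l, Rps23rg1 and Rps19bp1, of which Rps19bp1 encodes a protein that binds RPS19 and is no ribosomal protein.

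The lines ♂M-1, ♂M-3 and ZM-1 had been made by chromosome transfer, and the series concerns how the parental pronuclei of the zygote are reprogrammed. What the prefixes ♂M and ZM stand for is not written out in the labels, which give neither strain, sex nor passage. All 3 lines were grown on gelatin in DMEM with LIF, PD0325901, which inhibits MEK, and CHIR99021, which inhibits GSK3β. Each line had 2 biological repeats, 1 array each, so 6 arrays were compared. With 1 ZM line, a difference between the kinds of line cannot be told apart from a difference between single lines.

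Nearly every core ribosomal protein is present in a single copy per ribosome, and the genes are transcribed and translated in step. Their mRNAs share a pyrimidine-rich start, the 5′ terminal oligopyrimidine tract, through which the mTOR pathway sets their translation. Several core genes lie on the X chromosome, which is silenced during male meiosis, and autosomal copies stand in for some of them. Rpl10l is such a retrogene: in meiotic spermatocytes it replaces Rpl10, which the subunits need in order to join. Rpl39l, the testis-enriched copy of Rpl39, lines the tunnel through which the new peptide leaves the ribosome.

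The sequences before the start of Rpl10l, its X-linked parent Rpl10 and Rpl39l are shown because the first and last gave the largest differences between lines while the parent gave none past the test. They are RefSeq reference sequences of GRCm38.p6, 5′ to 3′ on the strand of the gene, with each CG dinucleotide in capitals; that of Rpl39l stops where its annotated gene begins.
Rpl10l (chr12:66284402-66284651, minus strand): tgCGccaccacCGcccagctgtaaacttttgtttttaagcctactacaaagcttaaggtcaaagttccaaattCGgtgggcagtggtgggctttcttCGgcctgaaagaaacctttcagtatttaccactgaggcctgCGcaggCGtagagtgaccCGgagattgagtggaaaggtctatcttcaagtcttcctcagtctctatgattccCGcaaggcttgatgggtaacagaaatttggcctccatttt
Rpl10 (chrX:74270566-74270815, plus strand): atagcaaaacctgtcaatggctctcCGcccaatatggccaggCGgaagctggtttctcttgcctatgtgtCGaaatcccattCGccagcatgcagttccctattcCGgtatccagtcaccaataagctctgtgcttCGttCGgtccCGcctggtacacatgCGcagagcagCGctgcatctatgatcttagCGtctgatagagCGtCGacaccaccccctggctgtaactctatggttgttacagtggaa
Rpl39l (chr16:10169978-10170196, plus strand): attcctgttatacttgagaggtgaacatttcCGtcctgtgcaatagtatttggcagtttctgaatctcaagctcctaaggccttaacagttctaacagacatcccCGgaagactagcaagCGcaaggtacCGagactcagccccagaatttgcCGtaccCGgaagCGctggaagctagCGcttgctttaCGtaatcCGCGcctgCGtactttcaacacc

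The printed stretches hold 8 CG dinucleotides for Rpl10l, 13 for Rpl10 and 12 for Rpl39l, and a retrogene is not copied with the promoter of its parent. RefSeq promoters, 250 bases before to 50 bases after the start, were found for 50 of the 62 members. Their median number of CG dinucleotides was 21, against 7 for all 27025 promoters. In these windows, which are longer than the printed stretches, Rpl10l held 13 and Rpl10 and Rpl39l held 17 each. A run of at least 8 consecutive C or T bases, searched on the gene's strand from 50 bases before to 50 bases after the start, was present in 36 of the 50 (72%), against 35.7% of all promoters. The longest such run is in capitals in the following stretches of 30 bases, which are shown for members described below.
Rpl10 (chrX:74270836-74270865, plus strand): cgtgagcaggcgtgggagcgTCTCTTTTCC
Rpl10l (chr12:66284429-66284458, minus strand): tcagtctctatgaTTCCCgcaaggcttgat
Rpl39l (chr16:10170191-10170220, plus strand): aacacccactgCCTCTCCCTagctcccagg
Rpl26 (chr11:68901508-68901537, plus strand): tcccaaccTCCTCTCCCCTTTCgctccgag
Rpl34 (chr3:130730393-130730422, minus strand): ctgacgcgccgCCTTCCCTgacgtacttcc
Rps21 (chr2:180257399-180257428, plus strand): ggaggcacgagctaCTTCCTTTCTgcgctc
Rps12 (chr10:23787182-23787211, minus strand): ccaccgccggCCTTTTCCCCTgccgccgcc
Rps3a1 (chr3:86142623-86142652, minus strand): acgtagacggcgCTCCCCgcccggctcgcg

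Called and uncalled members both appear among those with a run of 8 bases. The longest runs were 14 bases in Rpl26, 11 in Rps12, 10 in Rps21 and Rpl10, 9 in Rpl39l, 8 in Rpl34, 6 in Rps3a1 and 5 in Rpl10l. That of Rpl10 reaches the last base of its window and was not followed further, so its length is a minimum. The E-box CACGTG, which reads the same on both strands, lay in 4 of the 50 promoters (8%) against 7.24% of all, and TATAAA, searched on the gene's strand, in 5 (10%) against 8.88%. These counts describe letters in these windows.

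Most ribosomal protein genes differed little between the lines, and every call of the fit described here involved ♂M-3. Differences are given as the first line minus the second on a scale of log2(intensity + 1). In ♂M-1 against ZM-1, 0 of the 62 members passed the test (limma, Benjamini-Hochberg adjusted p below 0.05 over all genes), against 4.41% of all genes (1.89% higher and 2.53% lower). At an unadjusted p below 0.05 there were 9 members, all higher in ♂M-1, against 3981 of the 19938 genes, 1891 of them higher. That count of 0 became 1 with a pseudocount of 16 or median centring, 2 among genes above the 50th percentile of intensity and 9 with an intensity trend in the variance. In ♂M-3 against ZM-1, 9 members were called, or 14.5% against 15.9% of all genes: 8 were higher (background 8.66%) and 1 lower (7.20%). In ♂M-1 against ♂M-3, 4 were called, or 6.45% against 6.54%: 1 was higher (background 3.22%) and 3 lower (3.32%). The shares called in either direction are near those of all genes in the last 2 comparisons. By direction, which rests on few members, they were 12.9% higher and 1.61% lower in ♂M-3 against ZM-1. In ♂M-1 against ♂M-3 they were 1.61% higher and 4.84% lower. The 9 calls fell to 5 without ♂M-3 replicate 1 or 2 and to 6 without ZM-1 replicate 2, and the 4 calls to 2 without any 1 array of ♂M-1 or ♂M-3. Centring each array on its median moved the share of higher among all called genes from 42.7% to 62.0% in ♂M-1 against ZM-1 and from 54.6% to 70.9% in ♂M-3 against ZM-1. The comparisons share arrays, so they are not independent of each other. The p-values rest on 2 repeats a line, and in bulk RNA a change in the share of a cell type and a change in RNA per cell cannot be told apart.

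**Figure D1:**
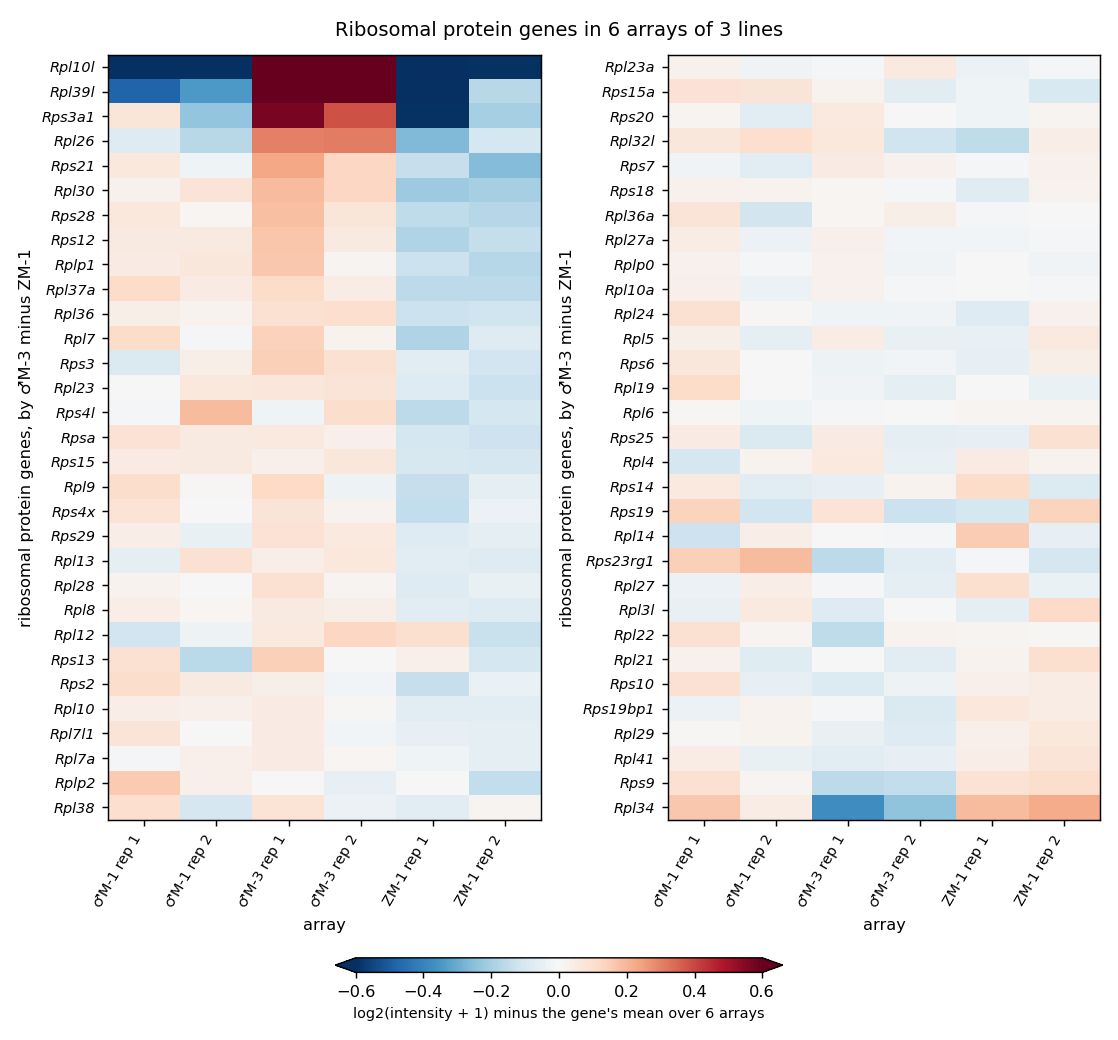
Heat map of the 62 members in the 6 arrays, 1 row per gene in 2 panels and 1 column per array, coloured by log2(intensity + 1) minus the gene's mean over the arrays; the colour scale ends at 0.6 in either direction. Rows are ordered by ♂M-3 minus ZM-1: Rpl10l, Rpl39l and Rps3a1 lead in the ♂M-3 columns, most rows are nearly white, and Rpl34 is last.

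The members' medians lay within a few hundredths of a log2 unit of 0, and they were not tested. The median difference was 0.0475 in ♂M-1 against ZM-1 (all genes −0.0082), 0.047 in ♂M-3 against ZM-1 (0.0021) and −0.006 in ♂M-1 against ♂M-3 (−0.0167). Differences were above 0 for 41 members (66.1%, against 47.6% of all genes), 42 (67.7%, against 50.5%) and 29 (46.8%, against 44.9%). Among the 9969 genes in the upper part of the intensity range, which held 60 members, the median of all genes was 0.029, 0.0586 and −0.0342, so in ♂M-3 against ZM-1 the members' median was below that of the genes in this range. After quantile normalization the members' medians against ZM-1 fell to 0.0169 in ♂M-1 (all genes 0.0047) and 0.0166 in ♂M-3 (0.0085), and median centring raised them to 0.0967 (0.0409) and 0.1042 (0.0594). The ♂M-1 median was 0.0248 without ♂M-1 replicate 1, 0.0799 without its replicate 2 and 0.077 without ZM-1 replicate 2. The ♂M-3 median was 0.0311 and 0.0783 without replicates 1 and 2 of that line. Between the ♂M lines it turned to 0.021 without ♂M-1 replicate 2 and 0.0219 without ♂M-3 replicate 1, and was −0.026 and −0.0276 without the other repeat of either line. The arrays of ♂M-1 and ZM-1 did not overlap for 32 members, against 48.9% of all genes: ♂M-1 was above for 26 (background 23.0%) and below for 6 (25.9%). Those of ♂M-3 and ZM-1 did not overlap for 37 (57.5% of all genes), with ♂M-3 above for 29 (30.1%) and below for 8 (27.4%). Between ♂M-1 and ♂M-3 there was no overlap for 26 (50.5% of all genes), 13 in each direction (21.6% and 28.9%).

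The members were among the brightest genes, with a median intensity of 3110 to 3227 per array where the median of all probe sets was 67.2 to 71.3, and their error was small. The median standard error of a member's difference was 0.0781, and the 95% interval lay within 0.5 log2 units of 0 for 61 of 62 members in ♂M-1 against ZM-1, 55 in ♂M-3 against ZM-1 and 57 in ♂M-1 against ♂M-3. Repeats of a line differed by a median of 0.0817 (♂M-1), 0.0628 (♂M-3) and 0.0434 (ZM-1) over the members, and by 0.0873, 0.0802 and 0.0972 over all genes. In ♂M-3 against ZM-1 the 38 members named Rpl had 4 higher and 1 lower (10.5% and 2.63%), against 8.66% and 7.20% of all genes. The 24 members named Rps, which include Rps19bp1 and Rps23rg1, had 4 higher and 0 lower (16.7% higher). Of these 24, 1 was lower at an unadjusted p below 0.05, against 2706 of the 19938 genes.

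**Figure D2:**
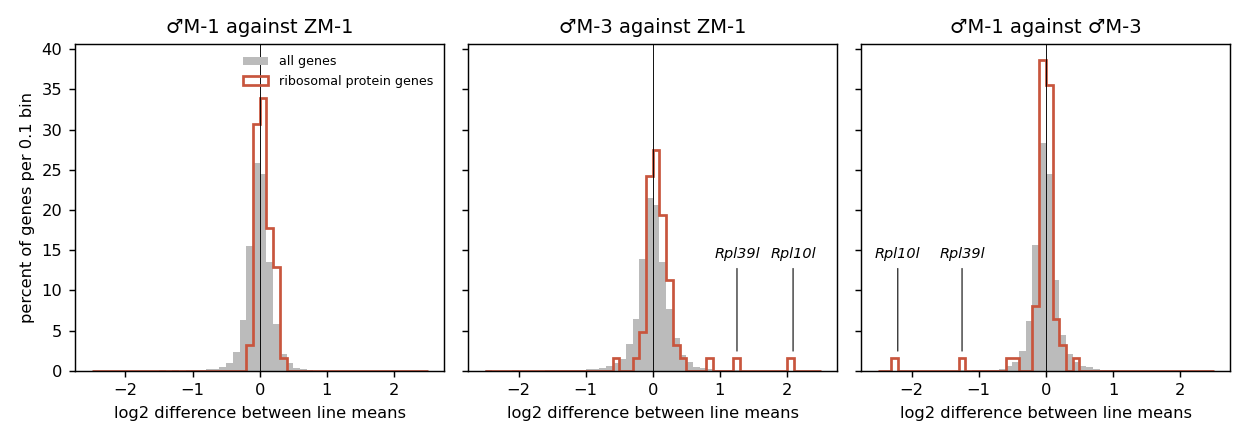
Distribution of log2 differences between line means in the 3 pairs of lines, as the percent of genes in bins of 0.1 for the 62 members (outline) and all 19938 genes (grey). The members centre near 0 in each panel, with Rpl10l and Rpl39l far to the right in ♂M-3 against ZM-1 and far to the left in ♂M-1 against ♂M-3.

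All lines carried the markers of pluripotent stem cells, with all 10 listed genes above the array median in all arrays. Pou5f1 lay between 3561 and 3878 and Sox2 between 2722 and 3111 without a call, and Nanog was higher in ♂M-3 than in ZM-1 by 0.28 (limma adjusted p = 0.0384), which did not pass when any ♂M-3 or ZM-1 array was left out (0.0806 to 0.161). Of the 10, 4 were higher and 1 lower in ♂M-3 than in ZM-1, against 8.66% and 7.20% of all genes. Zfp42, picked after its values were seen, was higher by 1.30 (2.4e-05). Of 10 fibroblast markers, 9 were lower in ♂M-3 than in ZM-1, against 7.20% of all genes. Their summed intensity was 2060.5 to 2158 in ♂M-3, 3452 to 3532 in ZM-1 and 3036 to 3380 in ♂M-1. Dcn was lower in ♂M-3 than in ZM-1 by −2.44 (adjusted p = 6.63e-06) and Col1a1 by −0.58 (0.00287), and 1 of the 10 had a mean below the lower quartile. Relative to ZM-1, ♂M-1 was lower in 2 of the 10, against 2.53% of all genes. Dcn was 1 of these, by −1.42 (limma adjusted p = 0.000332).

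Of 14 male germ cell markers, 4 lay below the lower quartile. In ♂M-3 against ZM-1, 1 was higher and 3 lower, against 8.66% and 7.20% of all genes. In ♂M-1 against ♂M-3, 0 were higher and 1 lower, against 3.22% and 3.32% of all genes. There 8 of the 14 differences were above 0 (57.1%, against 44.9% of all genes). Their summed intensities were 759 to 776 in ♂M-3, 877 to 889 in ZM-1 and 705 to 769 in ♂M-1. Dazl was higher in ♂M-3 than in ZM-1 by 0.57 (limma adjusted p = 0.0130) and differed by −0.76 in ♂M-1 against ♂M-3 (0.00676). With every probe set tested both calls were lost (0.0707 and 0.0778). The first was also lost without ♂M-3 replicate 2 (difference 0.52) or else ZM-1 replicate 2 (0.41). The second was also lost without ♂M-1 replicate 2 (−0.65) or else ♂M-3 replicate 2 (−0.70). Ddx4 was lower in ♂M-3 than in ZM-1 by −0.51 (0.00944). Its call was lost with every probe set tested (0.0542) and without ♂M-3 replicate 1 (difference −0.48). In ♂M-1 against ZM-1, 0 of the 14 were higher and 2 lower, against 1.89% and 2.53% of all genes. There 3 of the differences were above 0 (21.4%, against 47.6% of all genes). Sycp3 was 1 of the 2, lower by −0.70 (limma adjusted p = 0.00683). This call was lost with every probe set tested (0.0707) and without ♂M-1 replicate 2 (difference −0.55). The skeletal muscle list had 6 of 7 and the blood list 2 of 4 lower in ♂M-3 than in ZM-1, against 7.20% of all genes. In ♂M-1 against ZM-1, 3 of 7 and 1 of 4 were lower, against 2.53% of all genes. The part of these markers in the differences of Rpl10l, Rpl39l and the other called members was not tested.

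The copies Rpl10l and Rpl39l gave the largest differences among the members in both comparisons that involve ♂M-3. Rpl10l (chromosome 12, 66283379 to 66284401, GRCm38.p6) measured intensities of 188 and 158 for ♂M-1, 770.1 and 830.2 for ♂M-3, and 179 and 196 for ZM-1. The ♂M-3 arrays lay far above the other 4, and the ♂M-1 and ZM-1 arrays overlapped. The line means were 173 ± 21.1, 800.2 ± 42.5 and 187 ± 11.7 (SD, n = 2 each). Rpl10l was 4.26-fold higher in ♂M-3 than in ZM-1 (log2 difference 2.09, 95% interval 1.86 to 2.32, limma adjusted p = 6.59e-06). It was 4.61-fold lower in ♂M-1 than in ♂M-3 (log2 difference −2.21, adjusted p = 1.52e-05), and ♂M-1 and ZM-1 differed by −0.12 (−0.34 to 0.11, adjusted p = 0.579).

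Its parent Rpl10, on the X chromosome, was called in no pair. Rpl10 measured 8054 and 7998 for ♂M-1, 8107 and 7886 for ♂M-3, and 7505 in each ZM-1 array. The arrays of either ♂M line lay slightly above those of ZM-1, by 0.10 in ♂M-1 (95% interval −0.07 to 0.26, adjusted p = 0.511) and 0.09 in ♂M-3 (−0.07 to 0.25, adjusted p = 0.445). All 6 single-symbol probe sets of Rpl10 gave differences between 0.0582 and 0.1112 in ♂M-3 against ZM-1. The log2 ratio of Rpl10l to Rpl10 within an array rose by 1.998 from ZM-1 to ♂M-3 and changed by −0.21 in ♂M-1. Probe sequences were not used here, so overlap between the probes of a copy and the transcripts of its parent was not tested.

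Rpl39l (chromosome 16, 10170197 to 10174911) was also highest in ♂M-3, at a lower intensity. It measured 35.9 and 39.5 for ♂M-1, 79.2 and 104 for ♂M-3, and 31.3 and 44.8 for ZM-1, where the lower quartile of all probe sets lay between 23.8 and 25.1. The ♂M-3 arrays lay above the other 4, which overlapped. Rpl39l was 2.39-fold higher in ♂M-3 than in ZM-1 (log2 difference 1.25, 95% interval 0.87 to 1.64, limma adjusted p = 0.00168). ♂M-1 against ♂M-3 gave −1.25 (adjusted p = 0.00329), a call lost when every probe set was tested (adjusted p = 0.0600), and ♂M-1 against ZM-1 gave 0.01 (−0.38 to 0.39, adjusted p = 0.990). The parent Rpl39 lay only on probe sets with several symbols and was not tested.

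The other measured copies gave no call between any pair of lines. Rps4l, an autosomal copy of Rps4x, measured 1988 and 2285 for ♂M-1, 1966 and 2155 for ♂M-3, and 1793 and 1862 for ZM-1. All ♂M arrays lay above both ZM-1 arrays, by 0.22 in ♂M-1 (95% interval 0.01 to 0.43, adjusted p = 0.223) and 0.17 in ♂M-3 (−0.04 to 0.38, adjusted p = 0.252). Rps4x measured 3697 and 3489.8, 3683 and 3538, and 3145 and 3404 in the same order, with differences of 0.13 and 0.14 from ZM-1 (adjusted p = 0.401 and 0.279). The differences of copy and parent lay within each other's intervals.

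Rpl7l1, a paralogue of Rpl7, differed from ZM-1 by 0.09 in ♂M-1 and 0.07 in ♂M-3 (adjusted p = 0.558 and 0.593), and Rpl7 by 0.18 and 0.21 (adjusted p = 0.294 and 0.137). Rps23rg1, a retrogene of Rps23 whose product inhibits GSK3 signalling, measured 255 and 263 for ♂M-1, 207 and 220.1 for ♂M-3, and 230.3 and 215 for ZM-1. Its ♂M-1 arrays lay above the other 4, by 0.28 over ♂M-3 (95% interval 0.10 to 0.46, adjusted p = 0.0745) and 0.22 over ZM-1 (0.04 to 0.40, adjusted p = 0.163). The first of these passed with a pseudocount of 16 (adjusted p = 0.0368), above the 25th percentile (0.0465) or the 50th (0.0209), and with an intensity trend (0.0385). Rpl3l, the muscle paralogue of Rpl3, lay between 41.3 and 47.4 in the 6 arrays, and Rpl32l between 387 and 462. Their differences from ZM-1 were −0.03 and 0.14 in ♂M-1 and −0.07 and 0.03 in ♂M-3. Their parents Rps23, Rpl3 and Rpl32 lay only on probe sets with several symbols.

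**Figure D3:**
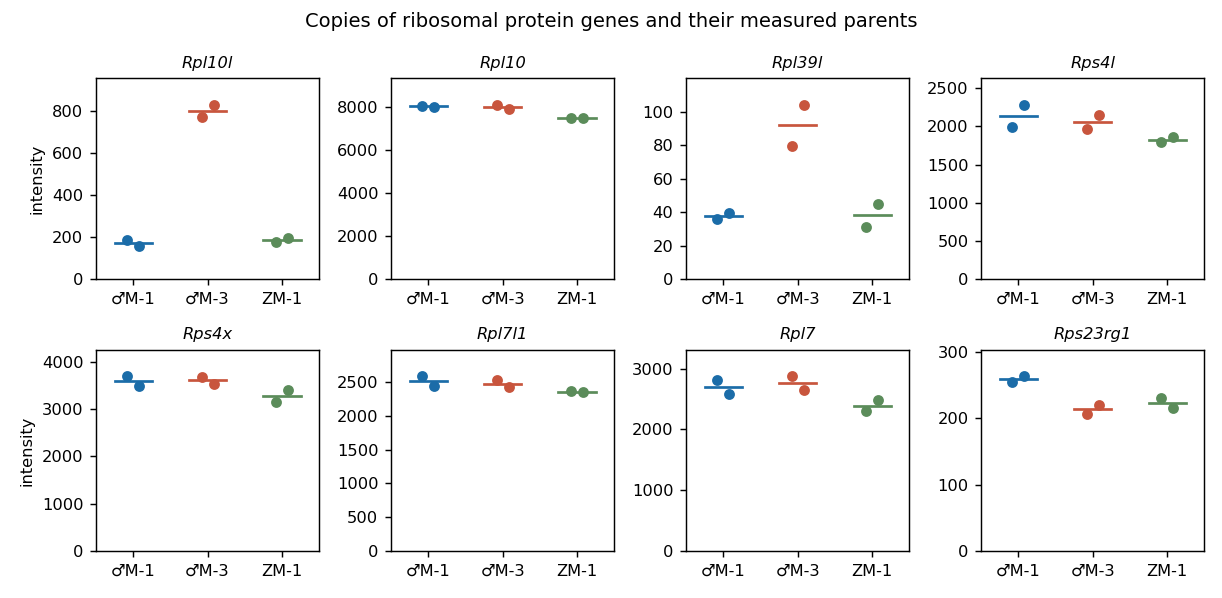
Intensity of 5 copies and 3 measured parents in the 3 lines, on a linear axis from 0 in each panel; points are arrays and bars are line means of 2 arrays. Rpl10l and Rpl39l stand high in ♂M-3, while Rpl10, Rps4l, Rps4x, Rpl7l1, Rpl7 and Rps23rg1 differ far less between lines.

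Among canonical large-subunit genes, Rpl26, Rpl30 and Rpl34 were called. Rpl26, whose protein sits near the exit of the peptide tunnel and also binds Trp53 mRNA, measured 453 and 425 for ♂M-1, 589.6 and 591 for ♂M-3, and 397 and 444 for ZM-1. Its ♂M-3 arrays lay above the other 4, and it was higher than in ZM-1 (log2 difference 0.49, 95% interval 0.30 to 0.68, limma adjusted p = 0.00519), a call kept in 17 of 17 alternative settings. It was lower in ♂M-1 than in ♂M-3 by −0.43 (adjusted p = 0.0184), a call lost without ♂M-1 replicate 1 (0.0565) or 2 (0.150), without ♂M-3 replicate 1 (0.106) or 2 (0.112), and with every probe set tested (0.0985).

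Rpl34, another large-subunit protein, went the other way. It measured 1195 and 1100.1 for ♂M-1, 824 and 905 for ♂M-3, and 1218 and 1245 for ZM-1. Its ♂M-3 arrays lay below the other 4. Rpl34 was 1.43-fold lower in ♂M-3 than in ZM-1 (log2 difference −0.51, 95% interval −0.70 to −0.32, limma adjusted p = 0.00420), which passed in 17 of 17 alternatives. ♂M-1 was above ♂M-3 by 0.41 (adjusted p = 0.0216), a call lost without ♂M-1 replicate 1 (0.122) or 2 (0.0795), without ♂M-3 replicate 1 (0.159) or 2 (0.0620), and with every probe set tested (0.107).

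Rpl30, whose yeast counterpart also regulates the splicing of its own transcript, measured 527 and 547 for ♂M-1, 592 and 565 for ♂M-3, and 445 and 451 for ZM-1. The ♂M-3 arrays were highest and the ZM-1 arrays lowest, without overlap. The difference was 0.37 in ♂M-3 against ZM-1 (95% interval 0.20 to 0.54, limma adjusted p = 0.0115), lost on leaving out ♂M-3 replicate 1 (0.0856) or 2 (0.0513). For ♂M-1 against ZM-1 it was 0.26 (adjusted p = 0.0911), and it passed there with a pseudocount of 16 (0.0415), median centring (0.0494), above the 50th percentile (0.0297) and with an intensity trend (0.0243).

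Of the small-subunit genes, Rps3a1, Rps21, Rps28 and Rps12 were called, all higher in ♂M-3 than in ZM-1. Rps3a1, which lies at the platform of the small subunit, measured 918 and 741 for ♂M-1, 1298 and 1139 for ♂M-3, and 578 and 761 for ZM-1. Its ♂M-3 arrays lay above the other 4, while the ♂M-1 and ZM-1 arrays overlapped and the repeats of each line were wide apart. It was 1.83-fold higher in ♂M-3 than in ZM-1 (log2 difference 0.87, 95% interval 0.54 to 1.20, limma adjusted p = 0.00465), kept in 17 of 17 alternatives. Against ♂M-1 the difference was just outside the threshold (−0.56 in ♂M-1 against ♂M-3, adjusted p = 0.0549). That value passed in 8 alternatives, among them without ZM-1 replicate 1 or 2 (0.0208 each). Rps3a1 had a single probe set here, and its near copies Rps3a2 and Rps3a3 were not analysed.

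Rps21, a small-subunit protein, measured 953 and 895 for ♂M-1, 1069 and 992 for ♂M-3, and 827 and 761 for ZM-1. All ♂M-3 arrays lay above the ♂M-1 arrays and those above the ZM-1 arrays. Its difference was 0.38 in ♂M-3 against ZM-1 (95% interval 0.19 to 0.57, limma adjusted p = 0.0169). The call was lost on leaving out ♂M-3 replicate 1 (0.116) or 2 (0.0532), without ZM-1 replicate 2 (0.0785), and with every probe set tested (0.0646). Its 2 probe sets gave 0.3101 and 0.3763.

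Rps28 and Rps12 were the smallest calls. Rps28, at the messenger exit of the small subunit, measured 2224 and 2142 for ♂M-1, 2409 and 2235 for ♂M-3, and 1913 and 1887 for ZM-1. Its difference from ZM-1 was 0.29 in ♂M-3 (95% interval 0.11 to 0.46, limma adjusted p = 0.0350), and it was called in 8 of 17 alternatives, with the call lost without any 1 of the 6 arrays (0.0534 to 0.203). Rps12, a protein of the beak of the small subunit, measured 2611 and 2617, 2827 and 2614, and 2222 and 2280.2. Its difference was 0.27 (0.10 to 0.45, adjusted p = 0.0425), called in 7 of 17 alternatives and lost without any 1 of the 6 arrays (0.0651 to 0.234). Between ♂M-1 and ZM-1 the same genes gave 0.20 and 0.22 (adjusted p = 0.192 and 0.161). All 14 probe sets of Rps12 were higher in ♂M-3 than in ZM-1, from 0.1738 to 0.3466, as were all 7 of Rps28, from 0.2685 to 0.3192, but these are only 8 and 6 distinct measurements. Tested singly over all 35556 probe sets, 1 of the 14 for Rps12 passed, and it was not the brightest one used for the gene.

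**Figure D4:**
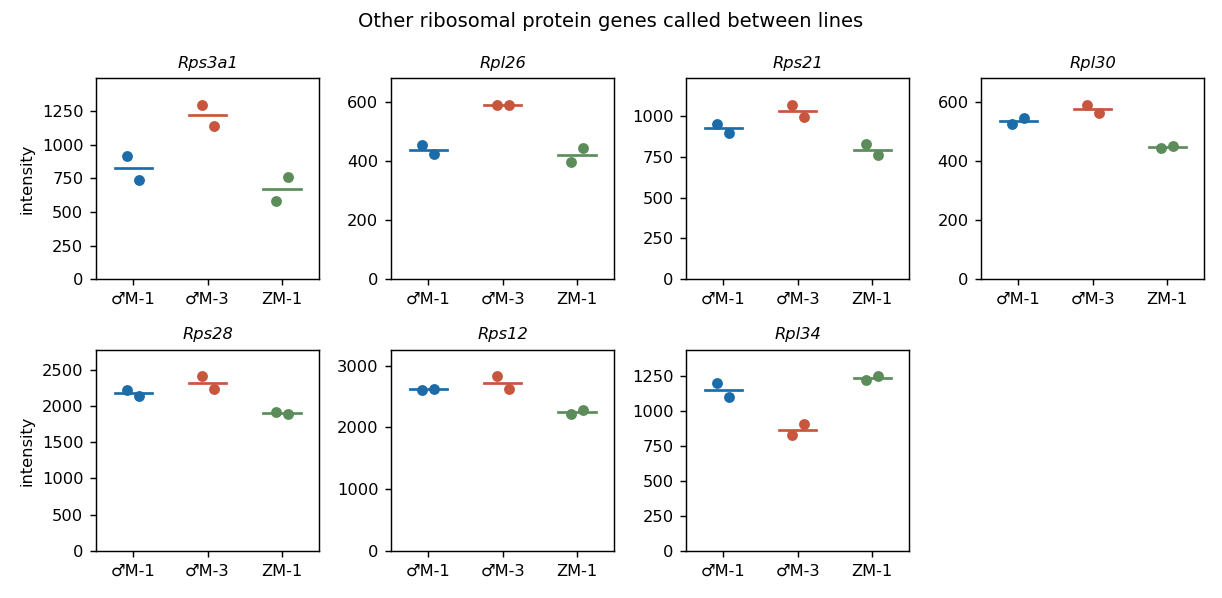
Intensity of the 7 other called members in the 3 lines, on a linear axis from 0 in each panel; points are arrays and bars are line means of 2 arrays. For 6 genes the ♂M-3 mean is highest and the ZM-1 mean lowest; Rpl34 is lowest in ♂M-3.

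Just outside the threshold in ♂M-3 against ZM-1 lay Rps9, needed for decoding accuracy, and Rpl37a. The probe sets of Rps9 disagreed: the brighter one, used for the gene, was lower by −0.25 (95% interval −0.41 to −0.08, adjusted p = 0.0506), and the other was 0.24 higher. The brighter measured 2494 and 2372 for ♂M-1, 2103 and 2116 for ♂M-3, and 2492 and 2522 for ZM-1, with ♂M-3 below the other 4 arrays, while the other measured 2163 and 2046, 2369 and 2407, and 1998 and 2052 in the same order, with ♂M-3 above them. Their mean gave −0.0054 (adjusted p = 0.972), so no direction is given for Rps9. Rpl37a was 0.24 higher in ♂M-3 (0.07 to 0.41, adjusted p = 0.0628). Rpl37a measured 4629 and 4435 for ♂M-1, 4637 and 4427 for ♂M-3, and 3844 and 3847 for ZM-1. Both ♂M lines thus lay above ZM-1 by like amounts (0.24 in ♂M-1, adjusted p = 0.119). With an intensity trend both of its differences passed (adjusted p = 0.00538 in ♂M-1 and 0.00213 in ♂M-3). Among genes above the 50th percentile they also passed (0.0419 and 0.0199). The ♂M-3 value passed as well with a pseudocount of 16 (0.0248), median centring (0.0263) and above the 25th percentile (0.0414).

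The X-linked members Rpl10, Rpl36a and Rps4x were called between no pair of lines, and none had an unadjusted p below 0.05. Over all genes 4.41% were called in ♂M-1 against ZM-1, 15.9% in ♂M-3 against ZM-1 and 6.54% in ♂M-1 against ♂M-3. At an unadjusted p below 0.05 there were 3981, 5980 and 3943 of the 19938 genes. Rpl36a measured 4141 and 3640.4 for ♂M-1, 3959 and 4025 for ♂M-3, and 3908 and 3929 for ZM-1. It differed from ZM-1 by −0.01 in ♂M-1 (95% interval −0.20 to 0.18) and 0.03 in ♂M-3 (−0.16 to 0.22). The 3 X-linked differences lay between −0.0133 and 0.1344 in ♂M-1 against ZM-1 and between 0.0267 and 0.1415 in ♂M-3 against ZM-1.

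Further members, picked for their roles after their values were seen, gave no call. Rplp0, the base of the stalk that recruits elongation factors, measured 8042 and 7861 for ♂M-1, 8037 and 7773 for ♂M-3, and 7872 and 7770.1 for ZM-1. Its differences from ZM-1 were 0.02 in both lines, with intervals that end at 0.19 and 0.18. Rplp1, a stalk protein, gave 0.21 and 0.24 (adjusted p = 0.196 and 0.0762), and the ♂M-3 value passed in 5 alternatives, such as median centring (0.0298). Rps6, the target of S6 kinase, gave 0.04 and −0.02, and Rpl5, which carries ribosomal RNA in the particle that restrains Mdm2, gave −0.02 and −0.01. Rps19bp1 gave −0.06 and −0.10 (adjusted p = 0.704 and 0.410).

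The 3 measured genes nearest to each called copy on either side were read for comparison. On the closer side of Rpl10l, Mdga2, 175.0 kb away, lay between 13.2 and 13.7 in all arrays, below the lower quartile. Fkbp3, 1209.4 kb away, and Lrr1, 2884.4 kb away, were higher in ♂M-3 than in ZM-1, by 0.32 (limma adjusted p = 0.0377) and 0.43 (0.00637). The call of Fkbp3 was lost on leaving out ♂M-3 replicate 1 (0.154) or 2 (0.141), without ZM-1 replicate 1 (0.125) or 2 (0.0669), after quantile normalization (0.0777), with the replicate block (0.0544) and with every probe set tested (0.105), and that of Lrr1 without ♂M-3 replicate 2 (0.0513). Fancm, Wdr20rt and Rps29 were not called. Beside Rpl39l, Atf7ip2, 17.7 kb away, gave 0.05 (adjusted p = 0.780), and Emp2, 106.8 kb away, was lower by −0.53 (0.00189). Usp7, 1810013L24Rik, Grin2a and Tekt5 were not called. In both comparisons with ♂M-3, none of these 12 neighbours differed by as much as its copy.

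Genes that build or regulate ribosomes were counted in lists. Of 55 biogenesis factors, which process ribosomal RNA and assemble subunits, 6 were higher and 2 lower in ♂M-3 than in ZM-1, against 8.66% and 7.20% of all genes, with a median of −0.0036. In each of the other comparisons 0 were called by limma, with 3 and 4 at an unadjusted p below 0.05. Rrp9, a component of the U3 particle, was higher by 0.40 (limma adjusted p = 0.0231), Nop10, a pseudouridylation cofactor, by 0.39 (0.0330), and Ltv1, a small-subunit export factor, by 0.31 (0.0225), while Gar1, another pseudouridylation cofactor, was lower by −0.33 (0.0192). These 4 calls were kept in 13, 12, 11 and 12 of 17 alternatives. Each was lost on leaving out ♂M-3 replicate 1 (adjusted p 0.0702 to 0.133) or 2 (0.127 to 0.140) and without ZM-1 replicate 2 (0.0568 to 0.151), and those of Ltv1 and Gar1 also without ZM-1 replicate 1 (0.0577 and 0.0591).

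Of 15 chaperones and assembly factors of single ribosomal proteins, 4 were higher and 0 lower in ♂M-3 than in ZM-1, with 1 lower at an unadjusted p below 0.05, against 8.66% and 7.20% of all genes, and 0 were called in the other comparisons, with 2 and 1 at that level. Besides Ltv1 these were Tsr2, the chaperone of RPS26, at 0.33 (limma adjusted p = 0.0428), Aamp, at 0.27 (0.0477), and Bccip, a chaperone of RPL23, at 0.26 (0.0452), called in 11, 6 and 7 of 17 alternatives. Tsr2 was lost on leaving out ♂M-3 replicate 1 (0.210) or 2 (0.104) or else ZM-1 replicate 1 (0.160), and the other 2 without any 1 of the 6 arrays (0.0581 to 0.211). Of 23 genes of the RNA polymerase I and III machinery, which transcribes ribosomal and transfer RNA, 1 was higher and 2 lower in ♂M-3 than in ZM-1 (13.0%, against 15.9% of all genes), and 0 were called in the other comparisons, with 1 and 8 at an unadjusted p below 0.05. Maf1, the repressor of polymerase III, was higher by 0.31 (adjusted p = 0.0231), Gtf3c1 lower by −0.30 (0.0334) and Taf1a lower by −0.26 (0.0460). Maf1 was lost on leaving out ♂M-3 replicate 1 (0.104) or 2 (0.124) or else ZM-1 replicate 2 (0.0877), and the other 2 without any 1 of the 6 arrays (0.0531 to 0.213).

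Of 15 growth signalling genes that act on ribosome synthesis, 3 were higher and 2 lower in ♂M-3 than in ZM-1, or 33.3% called against 15.9% of all genes. Myc, an activator of ribosomal genes, measured 287 and 323 for ♂M-1, 205 and 213 for ♂M-3, and 338 and 287 for ZM-1. Its ♂M-3 arrays lay below the other 4, by −0.57 against ZM-1 (limma adjusted p = 0.00582, kept in 17 of 17 alternatives), and ♂M-1 was above ♂M-3 by 0.54 (0.0145). The latter call was lost without ♂M-1 replicate 2 (0.139), without ♂M-3 replicate 1 (0.0993) or 2 (0.0728), and with every probe set tested (0.102). Eif4ebp2, a translation repressor under mTOR, was higher in ♂M-3 than in ZM-1 by 0.58 (adjusted p = 0.0150), Mtor itself by 0.43 (0.00730) and its activator Rheb by 0.42 (0.00677). The other lower gene was Mdm2, the restraint of p53, at −0.30 (0.0331), named because it completes the count. Its call was lost without any 1 of the 6 arrays (0.0517 to 0.209) and with median centring (0.0588). Eif4ebp2 was lost on leaving out ♂M-3 replicate 1 (0.0719) or 2 (0.0770), Mtor without replicate 1 (0.0594) and Rheb without replicate 2 (0.0554) of that line. For ♂M-1 relative to ZM-1, 0 of the 15 were called by limma, against 4.41% of all genes. At an unadjusted p below 0.05 there were 4, against 3981 of the 19938 genes.

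Of 19 measured translation factors and genes of other oligopyrimidine mRNAs, 1 was higher in ♂M-1 and 2 in ♂M-3 than in ZM-1 (5.26% and 10.5%, against 1.89% and 8.66% of all genes). Between the ♂M lines 0 were called by limma, against 6.54% of all genes, and 0 had an unadjusted p below 0.05, against 3943 of the 19938 genes. The call in ♂M-1 was Gas5, a noncoding host gene of small nucleolar RNAs, which measured 1338 and 1188 for ♂M-1, 1226 and 1182 for ♂M-3, and 906 and 904 for ZM-1. All ♂M arrays lay above the ZM-1 arrays, by 0.48 in ♂M-1 (limma adjusted p = 0.0154) and 0.41 in ♂M-3 (0.0114). The first was lost without ♂M-1 replicate 1 (0.0971), with its probe sets averaged (0.0931) and with every probe set tested (0.0821), and the second without ♂M-3 replicate 1 (0.0769) or 2 (0.0547) and with every probe set tested (0.0512). Eif4e, which binds the cap of messenger RNA, was higher in ♂M-3 by 0.40 (0.0310). Its difference was 0.04 (adjusted p = 0.798) when its probe sets were averaged, and its call was lost on leaving out ♂M-3 replicate 1 (0.0565) or 2 (0.189) and also without ZM-1 replicate 1 (0.0813) or 2 (0.0829).

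The list of mitochondrial ribosomal proteins was made by symbol alone, as 77 genes that start with Mrpl or Mrps and a digit. Of these, 9 were higher and 1 lower in ♂M-3 than in ZM-1 (13.0% called, against 15.9% of all genes). In ♂M-1 against ZM-1, 1 was lower (1.30%, against 2.53% of all genes lower and 4.41% called in either direction). Mrpl35 measured 493 and 518 for ♂M-1, 727 and 786 for ♂M-3, and 747 and 745 for ZM-1. Its ♂M-1 arrays lay below the other 4, by −0.56 against ZM-1 (limma adjusted p = 0.00500) and −0.58 against ♂M-3 (0.00318), each kept in 17 of 17 alternatives. In ♂M-1 against ♂M-3, 0 of the list were higher and 2 lower (2.60%), against 3.22% and 3.32% of all genes. Mrps9, the other of these 2, gave −0.31 (0.0453), a call lost without any 1 array of these lines (differences −0.26 to −0.37). It was also lost with no pseudocount (0.0508), quantile normalization (0.0715), the replicate block (0.0709) and every probe set tested (0.143). The largest differences in ♂M-3 against ZM-1 were Mrpl19 at 0.48 (0.0136), Mrps12 at 0.46 (0.0360), Mrps25 at −0.43 (0.0146) and Mrps36 at 0.41 (0.0164). The calls were lost for Mrpl19 without ♂M-3 replicate 2 (0.0987) or else ZM-1 replicate 1 (0.0584), for Mrps25 without ♂M-3 replicate 1 (0.107) or else ZM-1 replicate 1 (0.0624), and for Mrps36 without ♂M-3 replicate 1 (0.107) or 2 (0.0576) or else ZM-1 replicate 2 (0.0717). For Mrps12 the call was lost without either ♂M-1 array (0.0608 each), ♂M-3 replicate 2 (0.216) or else ZM-1 replicate 1 (0.148). Each was also lost with every probe set tested.

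**Figure D5:**
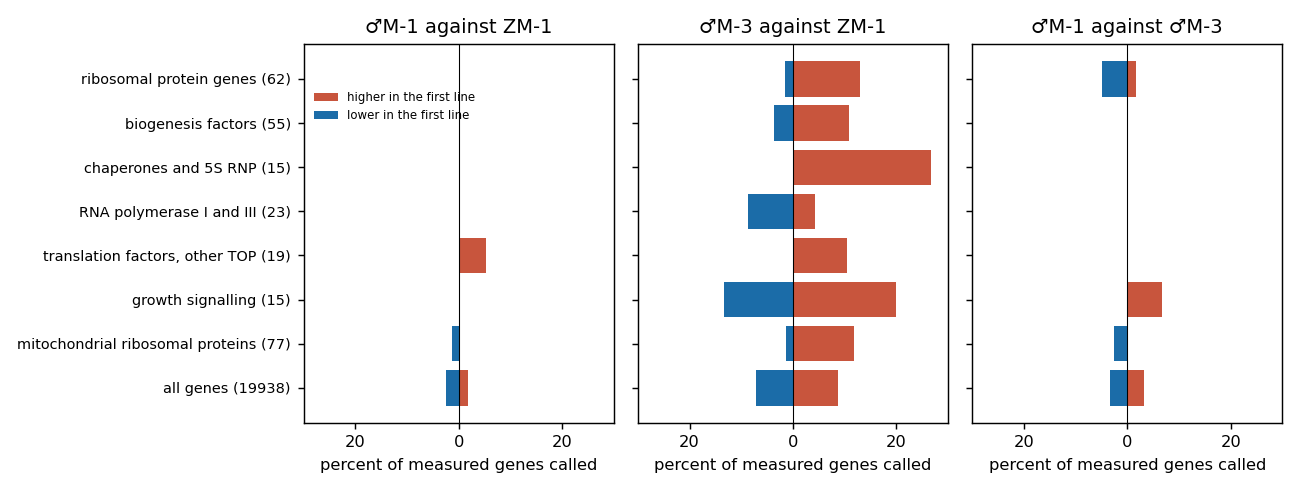
Percent of the measured genes of each list called higher (right) or lower (left) in the first line of each pair, with the number measured in brackets; the lowest bar is all genes. In ♂M-3 against ZM-1 the bar of the ribosomal protein genes reaches 12.9% higher and 1.61% lower, against 8.66% and 7.20% of all genes, and that pair has the longest bars.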

How the data were processed

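Total RNA from 2 biological repeats of each line was labelled for a mouse whole-transcript array and read with GCOS 1.4, per the submitters' processing notes. The authors deposited linear intensity values, 1 per probe set, but how they were background corrected, summarised and normalized is not given in the sources used here. Of 35556 probe sets, 21789 had 1 gene symbol in the array annotation, 1621 several and 12146 none, and a gene with several single-symbol probe sets was represented by the brightest. Values were taken to log2(intensity + 1) from the deposited intensities, and limma 3.58.1 in R 4.3.3 was fitted to all 6 arrays with 1 mean per line, with Benjamini-Hochberg adjustment over 19938 genes and two-sided tests. The fit was tested on simulated data. Promoters came from RefSeq GRCm38.p6, which held all 62 Entrez identifiers of the members. Arrays, not read depth, limit the precision.

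The members, gene lists and tests were chosen with earlier results of these data known. Text names were limited to called members, copies with their parents, the 5 largest differences per pair, X-linked members, members whose probe sets disagree, up to 4 called genes per list and pair, 8 markers and neighbours of called copies; other names are marked as chosen after their values were seen. Alternatives were the pseudocount, centring or quantile normalization, intensity filters, averaging or testing every probe set, the 4 arrays compared, an intensity trend, a replicate block and leaving out each array. Of the canonical genes, 16 lay only on probe sets with several symbols, and some others are not reported here.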

Additional observations from a re-analysis of the deposited data

How the results depend on the processing

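No called difference of a named gene changed direction, but the members' median in ♂M-1 against ♂M-3 did. Of the called members, Rpl10l, Rpl39l, Rps3a1, Rpl26 and Rpl34 kept their calls in ♂M-3 against ZM-1 under every alternative in which they were tested. Testing every probe set left 170, 1296 and 301 called of the 880 genes between ♂M-1 and ZM-1, the 3162 between ♂M-3 and ZM-1 and the 1303 between the ♂M lines, and an intensity trend gave 1632 in the first. Without 1 array the counts ran from 234 (without ♂M-1 replicate 2) to 631, from 1302 (without ♂M-3 replicate 2) to 2750 and from 357 (without ♂M-1 replicate 2) to 1495; the other marked losses were 367 without ♂M-1 replicate 1 and 576 without ZM-1 replicate 2 in the first, 1361 without ♂M-3 replicate 1 and 2077 without ZM-1 replicate 2 in the second, and 761, 468 and 419 without ♂M-1 replicate 1, ♂M-3 replicate 1 and ♂M-3 replicate 2 in the third.

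Members called in ♂M-1 against ZM-1 went from 0 to 1 with a pseudocount of 16 or median centring, 2 above the 50th percentile and 9 with the trend. In ♂M-3 against ZM-1, 9 became 18 with the trend and 5 to 7 without 1 array; in ♂M-1 against ♂M-3, 4 became 1 with every probe set tested, 7 with the trend and 2 to 5 without 1 array. Of 2 called copies, 1 was left above the 50th percentile, where Rpl39l was filtered out, and, in ♂M-1 against ♂M-3, 1 with every probe set tested. Over the alternatives the members' median ran from 0.0169 to 0.0967, from 0.0166 to 0.1042 and from −0.0276 to 0.0219.

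Between ♂M-1 and ZM-1 the biogenesis factors went from 0 to 1 with a pseudocount of 16 and 2 above the 50th percentile or with the trend; the polymerase list and the chaperones from 0 to 1 with the trend; the translation list from 1 to 2 above the 50th percentile, 3 with the trend, 0 with averaged or every probe set and 0 to 1 without 1 array; growth signalling from 0 to 1 above the 50th percentile, 3 with the trend and 0 to 1 without 1 array (1 without ZM-1 replicate 1). Mitochondrial genes went from 1 to 4 with a pseudocount of 16, 2 with median centring, quantile normalization or the replicate block, 3 and 5 above the 25th and 50th percentiles and 8 with the trend.

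In ♂M-3 against ZM-1 the biogenesis factors went from 8 to 14 with a pseudocount of 16 or the trend, 5 with quantile normalization, 15 above the 50th percentile, 0 with every probe set and 0 to 6 without 1 array; the polymerase list from 3 to 6 with a pseudocount of 16, 5 and 7 above the 25th and 50th percentiles, 0 with every probe set, 1 with 4 arrays, 8 with the trend and 0 to 1 without 1 array; the translation list from 2 to 1 with quantile normalization or averaged probe sets, 0 with every probe set, 4 with the trend and 0 to 2 without 1 array. Growth signalling went from 5 to 8 with a pseudocount of 16, either percentile or the trend, 3 with every probe set and 2 to 4 without 1 array. The chaperones went from 4 to 0 with quantile normalization or every probe set, 2 with 4 arrays and 0 to 2 without 1 array. Mitochondrial genes went from 10 to 17 with a pseudocount of 16 or median centring, 18 above the 50th percentile or with the trend, 1 with every probe set and 3 to 8 without 1 array.

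In ♂M-1 against ♂M-3 the biogenesis factors went from 0 to 1 with a pseudocount of 16, above the 50th percentile or with the trend, and the polymerase list from 0 to 1, 4 and 5 under the same. Growth signalling went from 1 to 2 with a pseudocount of 16 or above the 25th percentile, 3 above the 50th percentile or with the trend, 0 with every probe set and 0 to 2 without 1 array. Mitochondrial genes went from 2 to 1 with no pseudocount or every probe set, 4 with a pseudocount of 16, above the 25th percentile or with 4 arrays, 7 above the 50th percentile, 5 with the trend and 1 to 4 without 1 array. The causes were not tested.

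Over all genes, deviations of same-numbered repeats from their line means were weakly correlated (−0.0346, 0.067 and −0.1047). This was not tested for the members alone, so a link between same-numbered repeats in single genes is not excluded. With the replicate block 0, 8 and 4 members and 686, 2769 and 1071 genes were called, and 1 of the 4 chaperone calls and 2 mitochondrial calls in ♂M-1 against ZM-1. A crossed block for ♂M-3 against ZM-1, chosen after seeing the data, gave 3034 genes and 7 members.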

Other observations

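Probe sets that carry several gene symbols were left out of the members, and 239 of them hold a symbol of the ribosomal protein kind. For 20 genes, among them Rpl3, Rpl11, Rpl15, Rpl32, Rpl39, Rps16, Rps23, Rps24 and Rps26, these are the measurements at hand, and they cannot be given to 1 gene. In a fit over all 35556 probe sets, 2 of the 239 (0.837%) were called in ♂M-3 against ZM-1, both higher, against 5.70% of all probe sets. The 218 single-symbol probe sets of the members had 6 higher and 1 lower (3.21%) in that comparison. In ♂M-1 against ZM-1 limma called 0 of either kind at an adjusted p below 0.05, against 0.773% of all probe sets, and in ♂M-1 against ♂M-3 it called 1 lower single-symbol set, against 1.24%.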
